A study of Mus musculus with 37 samples.

Results

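The 8 genes described here act in or control cholesterol synthesis. They are *Hmgcs1*, *Idi1*, *Fdps*, *Fdft1*, *Sqle*, *Lss* and *Cyp51*, which encode enzymes, and *Insig1*, which encodes a sterol sensor. They were chosen by gene symbol from the 24662 different symbols of the array table, and each has 1 probe set among the 41155 that are not array controls. Their transcripts were measured in brown adipose tissue on 37 arrays, of which 35 are from BXD strains and 2 from C57BL/6J and DBA/2J, the parents of the panel. BXD strains are recombinant inbred mice that each carry a fixed mixture of the alleles of these parents. All mice were males kept on chow (Harlan 2018) and were killed after an overnight fast at 29 weeks of age according to the sample labels. RNA of about 5 mice per strain was combined in equal parts, so each array gives 1 value for a strain, with no replicates of that strain. Errors and p-values below therefore measure the spread between strain pools, which holds both genetic and technical differences.

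Cells make cholesterol from acetyl-CoA through mevalonate, the isoprenoid diphosphates, squalene and lanosterol. When sterols in the endoplasmic reticulum are low, the escort protein SCAP carries the transcription factors SREBP1 and SREBP2 to the Golgi, where they are cut and released to the nucleus. SREBP2 mainly drives sterol genes and SREBP1 mainly fatty acid genes, with overlap between their targets. Brown fat burns fatty acids for heat and also makes new fatty acids, so the acetyl-CoA steps at the entry of sterol synthesis are shared there with lipogenesis.

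Expression is given in rescaled units: the authors scaled each array so that its mean is 8 and its standard deviation (SD) 2. Levels of a transcript were compared between strains and not with other transcripts, since probe sets differ in brightness. Where a fold is given it is nominal and assumes log2 values with an SD of 2 before rescaling. A level of 7.94, the 95th percentile of 1128 olfactory receptor probe sets, served as the limit of background. The tissue label was checked on *Ucp1*, the heat-producing uncoupling protein of brown fat, which was bright on each array and lay between 14.82 and 15.69 over the BXD strains. Liver transcripts marked 2 arrays. *Alb*, the serum albumin gene, was at 14.96 in BXD70 and 13.93 in DBA/2J, against a BXD median of 7.85 and a level of 8.76 in C57BL/6J. In a bulk tissue sample, fewer cells of a type and less RNA per cell cannot be told apart.

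Promoters of 5 of the 8 genes were found in the RefSeq table (assembly GRCm38.p6): *Hmgcs1*, *Idi1*, *Lss*, *Cyp51* and *Insig1*. The 250 bases before the start were searched on both strands for the core of the sterol regulatory element bound by SREBP (TCACNCCAC), the CCAAT box (CCAAT) bound by the cofactor NF-Y, the GC box (GGGCGG) bound by Sp1 and an E-box (CACGTG). The sterol element core was found in 1 of the 5, *Hmgcs1*, where the match TCACCCCAC begins 137 bases before the start, and in 1.05% of 32851 mouse promoters. A CCAAT box was found in 5 of 5, against 33.9% of all promoters, and a GC box in 5 of 5, against 32.7%. The E-box was found in *Insig1*, 101 bases before the start, against 6.02% of all promoters. In these promoters no match to one motif overlapped a match to another. A match is a description of letters in this window and shows neither binding nor its absence. The sequences of *Hmgcs1*, *Idi1* and *Insig1* are printed because the first holds the sterol element core but did not rise with the others in the fits below, while *Idi1* and *Insig1* rose together. They run 5' to 3', and capitals mark the sterol element core and each CCAAT box on either strand (ATTGG is the box on the opposite strand).
Hmgcs1, chr13:119690101-119690350, plus strand: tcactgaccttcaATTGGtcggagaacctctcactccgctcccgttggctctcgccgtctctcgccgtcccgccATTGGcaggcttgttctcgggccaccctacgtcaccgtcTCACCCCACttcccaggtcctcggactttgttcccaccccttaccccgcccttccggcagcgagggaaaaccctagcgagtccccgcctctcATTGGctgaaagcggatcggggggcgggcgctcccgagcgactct
Idi1, chr13:8885356-8885605, plus strand: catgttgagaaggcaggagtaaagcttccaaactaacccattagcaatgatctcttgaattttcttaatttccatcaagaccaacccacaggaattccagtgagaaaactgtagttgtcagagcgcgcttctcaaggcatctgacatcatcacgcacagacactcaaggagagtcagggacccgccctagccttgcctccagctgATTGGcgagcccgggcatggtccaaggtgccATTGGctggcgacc
Insig1, chr5:28071162-28071411, plus strand: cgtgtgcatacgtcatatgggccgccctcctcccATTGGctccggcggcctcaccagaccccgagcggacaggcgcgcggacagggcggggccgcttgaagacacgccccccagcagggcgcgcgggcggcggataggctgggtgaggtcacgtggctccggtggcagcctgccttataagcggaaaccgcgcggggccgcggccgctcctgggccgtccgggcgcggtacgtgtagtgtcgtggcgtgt

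The 8 transcripts differed between strains by more than most transcripts of the tissue. Their ranges, taken as the highest minus the lowest BXD strain, were 1.36 to 2.08 units with a median of 1.74, or a nominal 3.35-fold. The median range was 0.90 units, a nominal 1.86-fold, over all probe sets and 0.83 units over the 19436 probe sets with a mean above background. Each of the 8 was within the 95th percentile of all ranges, 2.24 units, and *Sqle*, at 2.08, was just past that of the probe sets above background, 2.07. These ranges are descriptions without a test, because no strain was measured more than once.

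*Hmgcs1* encodes the cytosolic synthase that makes HMG-CoA at the entry of the mevalonate pathway. It was at 12.62 ± 0.37 (SD, n = 35), and went from 11.81 in BXD56 through a median of 12.79 to 13.25 in BXD62. *Idi1*, the isomerase of the isoprenoid building blocks, was at 9.86 ± 0.41, and went from 9.32 in BXD61 through a median of 9.76 to 11.08 in BXD87. These profiles differed in shape, since the far strains of *Hmgcs1* lay below its median and those of *Idi1* above it. *Fdps* encodes farnesyl diphosphate synthase, whose product feeds sterols and protein prenylation. It was at 10.31 ± 0.36 and went from 9.78 in BXD49 through a median of 10.19 to 11.50 in BXD87, with the next strain, BXD45, at 10.92. *Fdft1*, squalene synthase, which commits the pathway to sterols, was at 12.90 ± 0.52 and went from 11.77 in BXD66 through 12.94 to 13.68 in BXD89. BXD87, the top strain of *Idi1* and *Fdps*, was below the median of *Fdft1* at 12.77.

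*Sqle* encodes squalene epoxidase, a rate-limiting step after squalene, and had the largest range of the 8. It was at 8.13 ± 0.49 (SD, n = 35), and went from 7.59 in BXD48 through a median of 7.97 to 9.18 in BXD101 and 9.68 in BXD87. It was above the limit of background in 20 of 35 strains, so differences among its lower strains lie near background. *Lss*, lanosterol synthase, which closes the sterol rings, was at 9.55 ± 0.37 and went from 9.13 in BXD62 through 9.42 to 10.49 in BXD45. *Cyp51*, lanosterol demethylase, was at 8.29 ± 0.41 and went from 7.52 in BXD96 through 8.21 to 9.40 in BXD45, above background in 31 of 35 strains. The other 6 transcripts were above background in 35 of 35 strains. *Insig1* encodes the protein that holds SCAP and SREBP in the endoplasmic reticulum when sterols are plentiful and is itself an SREBP target. It was at 13.46 ± 0.40 and went from 12.73 in BXD61 through 13.45 to 14.35 in BXD45 and, at almost the same level, BXD101. The upper strains therefore recurred: BXD87 was highest for *Idi1*, *Fdps* and *Sqle*, and BXD45 for *Lss*, *Cyp51* and *Insig1*.

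**Figure D1:**
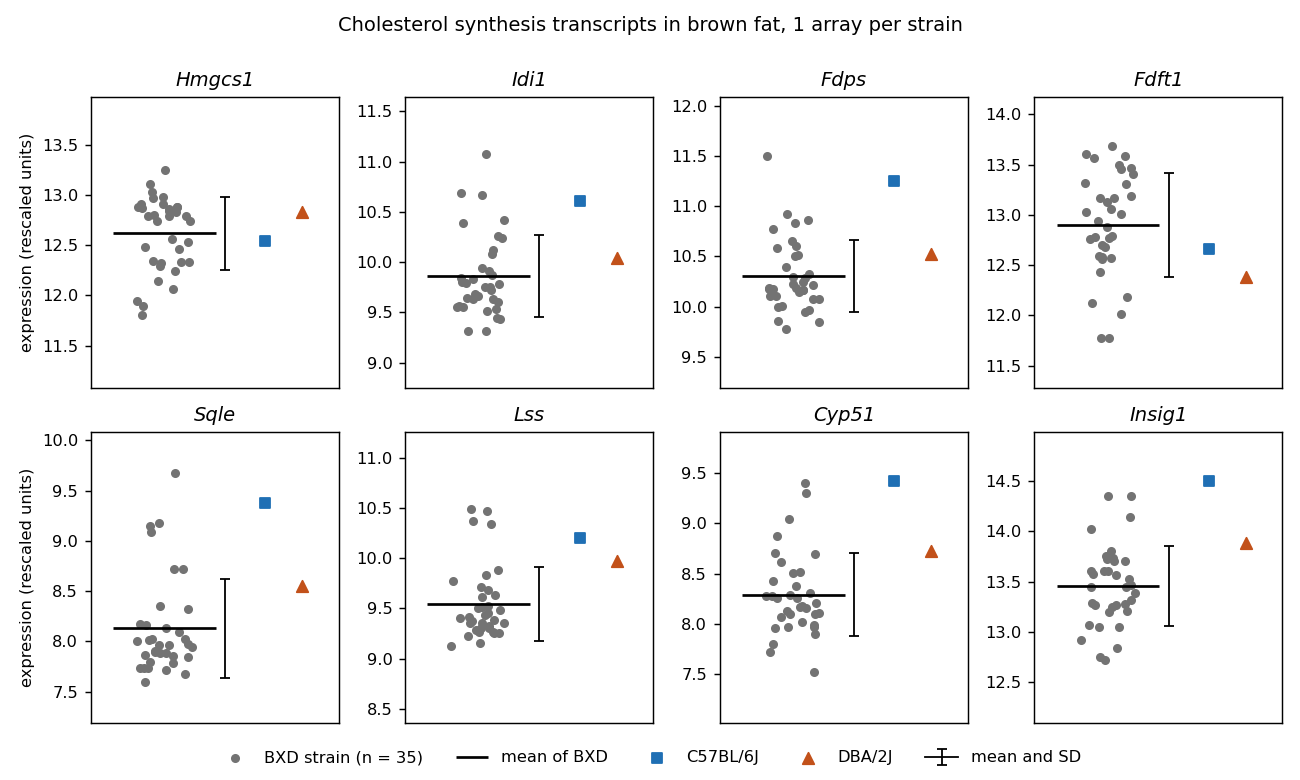
Expression of the 8 transcripts in rescaled units, 1 panel per gene with the same span on each vertical axis. Grey points are 35 BXD strains, the line and bar their mean and SD, the square C57BL/6J and the triangle DBA/2J; the square is above every BXD strain for *Cyp51* and *Insig1*.

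In C57BL/6J 7 of the 8 transcripts were higher than in DBA/2J, and *Hmgcs1* was lower by 0.29 units. *Sqle* was at 9.38 in C57BL/6J and 8.55 in DBA/2J, *Fdps* at 11.25 and 10.52, and *Cyp51* at 9.42 and 8.72. *Insig1* was at 14.50 and 13.89, *Idi1* at 10.61 and 10.04, *Fdft1* at 12.66 and 12.38, and *Lss* at 10.20 and 9.97. With 1 array per parent these differences have no replicate check. Of all probe sets 48.1% were higher in C57BL/6J. The median size of the difference was 0.18 units, its 95th percentile was 0.77, and of the 8 transcripts only *Sqle*, with -0.82 units as DBA/2J minus C57BL/6J, was past it. The DBA/2J array also had more signal of liver genes (mean of 10 genes 10.39 against 7.18) and of macrophage genes (mean of 6 genes 10.55 against 9.82). The endothelium list had a mean of 11.68 in C57BL/6J and 12.06 in DBA/2J, against 11.66 in the lowest BXD strain, and *Cdh5* and *Pecam1*, both markers of vessels, were lower in C57BL/6J (13.33 and 11.07) than in any BXD strain (from 13.43 and 11.18). The part of these cell types in the parental differences was not tested.

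BXD strains often lay outside the range set by their parents for these transcripts. For *Cyp51*, *Insig1* and *Lss* 31 of 35 strains were lower than both parents, for *Sqle* 29, for *Fdps* 27 and for *Idi1* 26. *Cyp51* and *Insig1* were higher in C57BL/6J than in any BXD strain. *Fdft1* went the other way, with 25 strains above both parents and 5 below both, and *Hmgcs1* was nearly balanced with 13 above and 14 below. The share of strains outside both parents was not counted over all probe sets, so these counts have no background here. Over all probe sets the median parental difference was 0.18 units and the median BXD range 0.90 units, so such strains may be common for other transcripts. How often C57BL/6J was above every BXD strain was not counted over all probe sets either. How far the parent arrays differ from the BXD arrays for technical reasons was not tested.

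The strains that stood out did so for several steps of the pathway at once. BXD87, BXD45 and BXD101 were each among the 5 highest strains for 6 of the 8 transcripts, always *Idi1*, *Fdps*, *Sqle*, *Lss*, *Cyp51* and *Insig1*. BXD101, for example, was at 10.69 for *Idi1*, 9.18 for *Sqle*, 10.37 for *Lss* and 14.35 for *Insig1*. The exceptions were *Hmgcs1*, which was at 12.79 in BXD87, 12.54 in BXD45 and 12.06 in BXD101, and *Fdft1*, at 12.77, 12.76 and 13.32. Only the last of these was above the median of its transcript, ranking 9 of 35. When each transcript was centred and scaled over the strains, the mean of the 8 was 2.00 SD in BXD87, 1.502 in BXD45 and 1.41 in BXD101, and lowest in BXD61 with -0.95. BXD61 was among the 5 lowest strains for 5 of the 8, and its *Hmgcs1* level of 12.90 ranked 7 of 35.

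**Figure D2:**
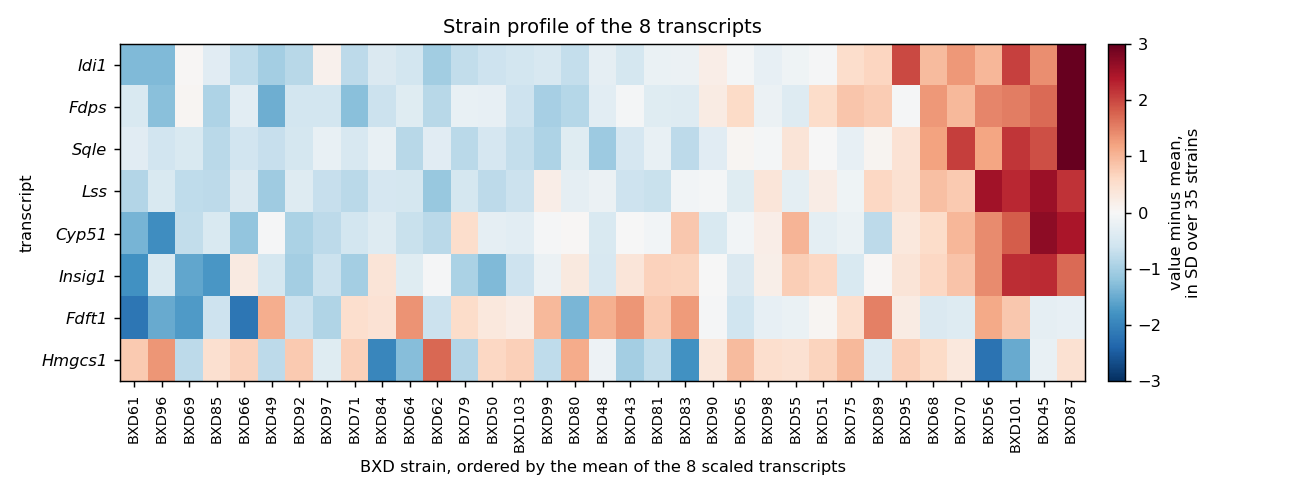
Value of each transcript minus its mean, in SD over 35 strains (colour), for every BXD strain in order of the mean of the 8. The upper 6 rows darken together at the right in BXD101, BXD45 and BXD87, and the rows of *Fdft1* and *Hmgcs1* do not follow them.

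Covariation over the 35 BXD strains was tested in limma fits with 1 member at a time as the covariate and Benjamini-Hochberg adjustment over all 41154 other probe sets. A pair was called where both of its fits passed an adjusted p of 0.05. Of the 28 pairs, 15 were called with a positive slope and 1 with a negative slope. The 15 were all the pairs among *Idi1*, *Fdps*, *Sqle*, *Lss*, *Cyp51* and *Insig1*, with limma adjusted p from 4.82e-08 to 0.00721 over their 30 fits. This grouping of 6 was seen in the fits and not set beforehand, so it is described here and not itself tested. Neither *Hmgcs1* nor *Fdft1* rose with any of the others.

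Each of the 6 rose with the 5 others of the group. These 5 calls among the 7 other members compare with 0.846% of all probe sets called higher with *Idi1*, 0.588% with *Fdps* and 0.484% with *Sqle*. The shares were 0.814% with *Lss*, 0.289% with *Cyp51* and 0.447% with *Insig1*. Per unit of *Sqle*, *Idi1* rose by 0.71 ± 0.07 units (slope and SE, limma adjusted p = 1.39e-07), *Fdps* by 0.63 ± 0.07 (1.50e-07), *Lss* by 0.63 ± 0.07 (4.71e-07), *Cyp51* by 0.65 ± 0.09 (2.30e-05) and *Insig1* by 0.61 ± 0.09 (0.000114). With *Hmgcs1* as the covariate 0 of 7 were called higher, against 0.224% of all probe sets, and with *Fdft1* 0 of 7, against 2.79%. At an unadjusted limma p under 0.05 these counts were also 0 of 7. In the fits of these 2 against the 6, limma's adjusted p was 0.307 to 0.986.

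The closest pair was *Idi1* and *Fdps*, neighbouring steps of isoprenoid synthesis, with Pearson's r of 0.862 (permutation p = 1e-05) and Spearman's rho of 0.803 (p = 1e-05), where 1e-05 is the smallest p that 100000 two-sided permutations can give. Without BXD87 and BXD101, the strains farthest from the median of *Idi1*, r was 0.775. *Idi1* and *Sqle* had r of 0.860, rho of 0.725 and r of 0.756 without the same 2 strains. The loosest pair of the group was *Fdps* and *Insig1*, with r of 0.651 (permutation p = 3e-05), rho of 0.549 (p = 0.00066) and r of 0.543 without the 2 farthest strains. Correlation within the group was lower by rank and without the top strains, and positive for 15 of 15 pairs in each form. The 15 pairs were grouped by their positive slopes on these same arrays. The sign of r was set by that choice, as in part was its gap to the 13 pairs below. Over these 15 pairs, r had a median of 0.799, rho of 0.660, and r without the 2 farthest strains of 0.724. The 13 pairs with *Hmgcs1* or *Fdft1* had r from -0.597 to 0.313 with a median of -0.045.

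The calls rested in part on the 3 top strains. Without BXD45, BXD87 and BXD101, a check added after the data were seen, 6 of the 28 pairs were called in limma, all 6 among the 15, and r over the 15 pairs was 0.443 to 0.739 with a median of 0.597. With ranks 4 pairs were called, and without the 2 strains farthest from the median of each covariate 8, all among the 15. Without BXD70, the strain with liver transcripts, the count was 15, and the same 15 pairs were called without any other single strain.

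**Figure D3:**
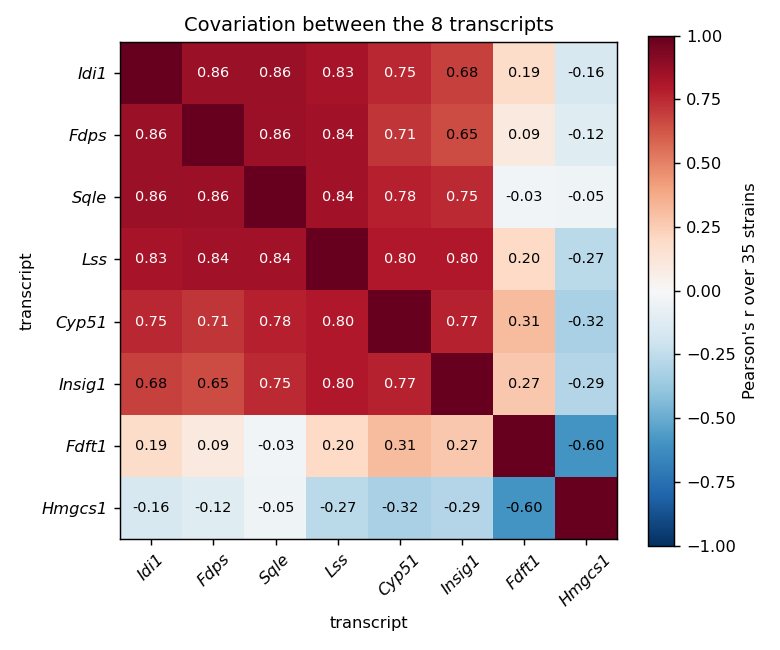
Pearson's r over 35 BXD strains for each pair of the 8 transcripts, as colour and number. The block of *Idi1*, *Fdps*, *Sqle*, *Lss*, *Cyp51* and *Insig1* holds r of 0.65 to 0.86, and the lowest cell is -0.60 between *Hmgcs1* and *Fdft1*.

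*Hmgcs1* and *Fdft1* moved in opposite directions. Their r was -0.597 (permutation p = 0.00021) and rho -0.633 (p = 9e-05), with r of -0.590 without BXD56 and BXD84, the strains farthest from the median of *Hmgcs1*. In limma, *Hmgcs1* fell by 0.42 ± 0.10 units per unit of *Fdft1* (slope and SE, adjusted p = 0.0062), and *Fdft1* fell by 0.85 ± 0.19 units per unit of *Hmgcs1* (adjusted p = 0.0301). The share of all probe sets called lower was 1.8% with *Fdft1* and 0.236% with *Hmgcs1*, against 1 of 7 members in each. The call did not hold without BXD43, BXD56, BXD64, BXD83, BXD96 or BXD101, when the count of opposite pairs was 0 in each case. Against *Sqle*, r was -0.045 for *Hmgcs1* (permutation p = 0.8, rho = 0.018) and -0.030 for *Fdft1* (p = 0.863). These p-values do not show that the transcripts vary independently.

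**Figure D4:**
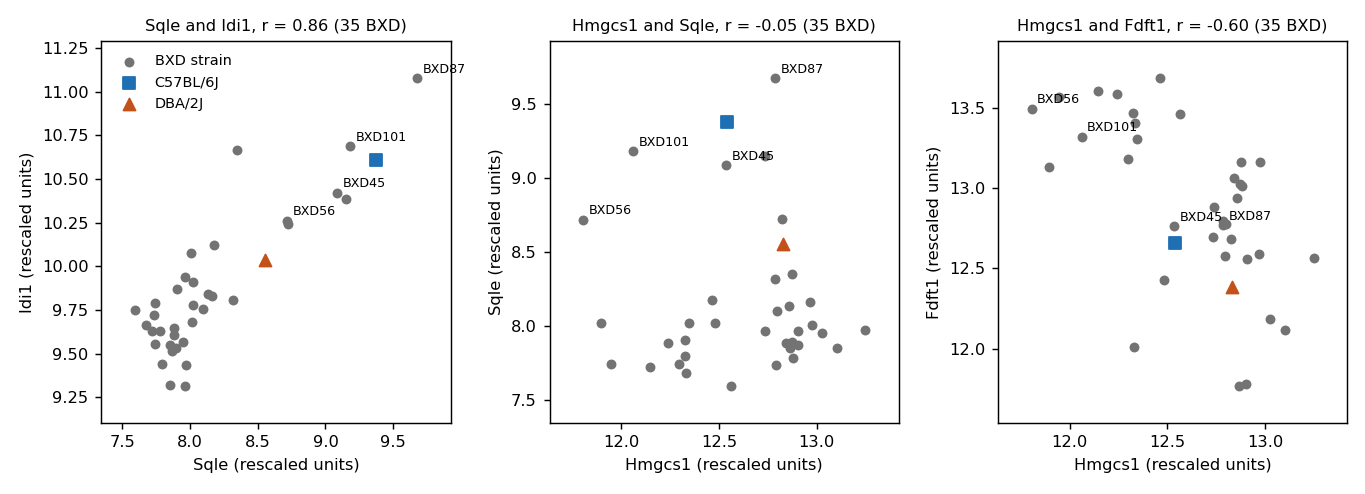
Levels in rescaled units of *Idi1* against *Sqle*, *Sqle* against *Hmgcs1* and *Fdft1* against *Hmgcs1*, with grey points for BXD strains, a square for C57BL/6J and a triangle for DBA/2J. *Idi1* climbs with *Sqle* up to BXD87, *Sqle* shows no slope on *Hmgcs1*, and *Fdft1* declines as *Hmgcs1* rises.

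The transcripts of the factors themselves, SREBP2 and SREBP1, were each used as a covariate as well. *Srebf2*, the gene of SREBP2, spanned only 0.62 units, from 9.99 in BXD96 through a median of 10.27 to 10.61 in BXD69. With *Srebf2* as the covariate, limma called 0 of 8 members at an adjusted p of 0.05, and 0% of all probe sets. At an unadjusted p under 0.05, 5 of 8 were higher with *Srebf2*, against 3.02% of all probe sets: *Idi1* (r = 0.438), *Fdps* (0.446), *Sqle* (0.389), *Lss* (0.344) and *Cyp51* (0.415). When BXD45, BXD87 and BXD101 were left out, these r were 0.167 (*Lss*) to 0.319 (*Fdps*). By rank, rho was 0.252 for *Sqle* (permutation p = 0.142) and 0.335 to 0.483 for the rest. *Srebf1*, the gene of SREBP1, spanned 1.04 units, from 10.004 in BXD83 through 10.43 to 11.04 in BXD68. With *Srebf1*, a fit added after the data were seen, 5 of 8 members were called higher, against 0.695% of all probe sets. They were *Fdps* (r = 0.708, adjusted p = 0.00104), *Sqle* (0.699, 0.00122), *Idi1* (0.672, 0.00315), *Lss* (0.674, 0.00315) and *Insig1* (0.543, 0.0487), while *Cyp51* had r of 0.535 and an adjusted p of 0.0543. *Hmgcs1* (r = 0.145) and *Fdft1* (r = -0.125) were not called. Without BXD45, BXD87 and BXD101 the count with *Srebf1* was 0, with ranks it was 1 and without the 2 farthest strains 3. The 5 members named with each factor covary among themselves, so neither count is 5 separate results. Whether the members relate more closely to *Srebf1* than to *Srebf2* was not tested. The array probes do not report the cut, nuclear form of either factor.

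The rest of the pathway was followed with a list of 25 genes of sterol synthesis, uptake and control, all measured. Of these, 9 rose with at least 4 of the 8 members, against 0.394% of all probe sets. With at least 1 member 16 rose, and 9 never passed. The share of all probe sets called in at least 1 fit was not counted, so the 16 has no background here. In single fits 0.224% (*Hmgcs1*) to 2.79% (*Fdft1*) of all probe sets were called higher. The count of 9 became 5 without the 2 strains farthest from the median of each covariate, 2 without BXD45, BXD87 and BXD101, and 0 with ranks. *Acly* and *Acss2*, which make cytosolic acetyl-CoA from citrate and from acetate, passed with 6 members each. *Acly* went from 12.51 in BXD85 through 13.61 to 15.14 in BXD87, and *Acss2* from 11.22 in BXD61 through 11.98 to 13.36 in BXD101. The 6 members were in both cases the 6 of the covarying group.

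Among the sterol enzymes, *Pmvk* (phosphomevalonate kinase) and *Nsdhl* (a sterol dehydrogenase after *Cyp51*) also passed with those 6. *Pmvk* went from 9.11 in BXD61 through 9.63 to 10.60 in BXD101. *Nsdhl* went from 10.47 in BXD81 through 11.11 to 12.51 in BXD87. The same strains were thus at the top as for *Idi1* and *Sqle*. *Sc4mol*, the sterol methyl oxidase now named *Msmo1*, passed with 5 members, and *Sc5d*, a sterol desaturase, and *Srebf1* with 4. *Sc4mol* went from 7.95 in BXD64 through 8.60 to 9.20 in BXD87, and *Sc5d* from 10.73 in BXD79 through 11.10 to 12.09 in BXD45.

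Among the genes that never passed were *Mvd*, *Ggps1*, *Ebp*, *Stard4*, *Srebf2*, *Scap* and *Insig2*. Of these, *Stard4* had a mean of 7.78, under the limit of background. *Mvd*, the decarboxylase that makes the substrate of *Idi1*, spanned 0.76 units, from 8.14 in BXD85 through 8.46 to 8.90 in BXD101. Its limma adjusted p with *Sqle* was 0.43. *Tmem97* rose with *Fdft1* alone (adjusted p = 0.00416). *Npc1*, which exports cholesterol from lysosomes, rose with *Fdft1* (adjusted p = 0.00209) and fell with *Sqle* (adjusted p = 0.0495). *Acat2*, *Mvk*, *Tm7sf2*, *Hsd17b7* and *Dhcr7* passed with 2 or 3 members.

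Of 7 lipogenic targets of SREBP1, 4 rose with at least 4 members, against 0.394% of all probe sets. They were *Elovl6*, a fatty acid elongase, with 7, and *Acaca* (acetyl-CoA carboxylase), *Me1* (malic enzyme) and *Thrsp*, a lipogenic regulator, with 6. Members of the group covary, so passing with several of them is not several separate results. The count of 4 became 1 without BXD45, BXD87 and BXD101, 1 with ranks and 2 with the endothelium list as a second covariate. *Elovl6* was called with *Fdft1* as well as with the 6 of the group. *Thrsp* went from 12.47 in BXD85 through 13.05 to 14.14 in BXD87. *Pnpla3* passed with 3 members, *Fasn* with *Insig1* only and *Scd1* with none. The means of *Fasn* and *Scd1*, 15.69 and 15.81, are near the top of the array scale. Whether this limited their calls was not tested. *Fasn* spanned 1.33 units and had r of 0.583 with the mean of the 8, and *Scd1* spanned 0.46 units with r of 0.273. Of 6 genes of cholesterol export and of the liver X receptors (*Abca1*, *Abcg1*, *Mylip*, *Lpcat3*, *Nr1h2*, *Nr1h3*), 0 passed in any fit. In single fits 0.224% to 2.79% of all probe sets were called higher. Of their 48 tests, 15 had an unadjusted limma p under 0.05 in either direction. No share of all probe sets was counted at that threshold, and the 48 tests repeat the same 6 genes with correlated covariates. The r of these 6 genes with the mean of the 8 had a median of 0.106. It was lowest for the exporter *Abcg1*, -0.510, which was highest in BXD61 (10.29) and lowest in BXD87 (9.15).

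**Figure D5:**
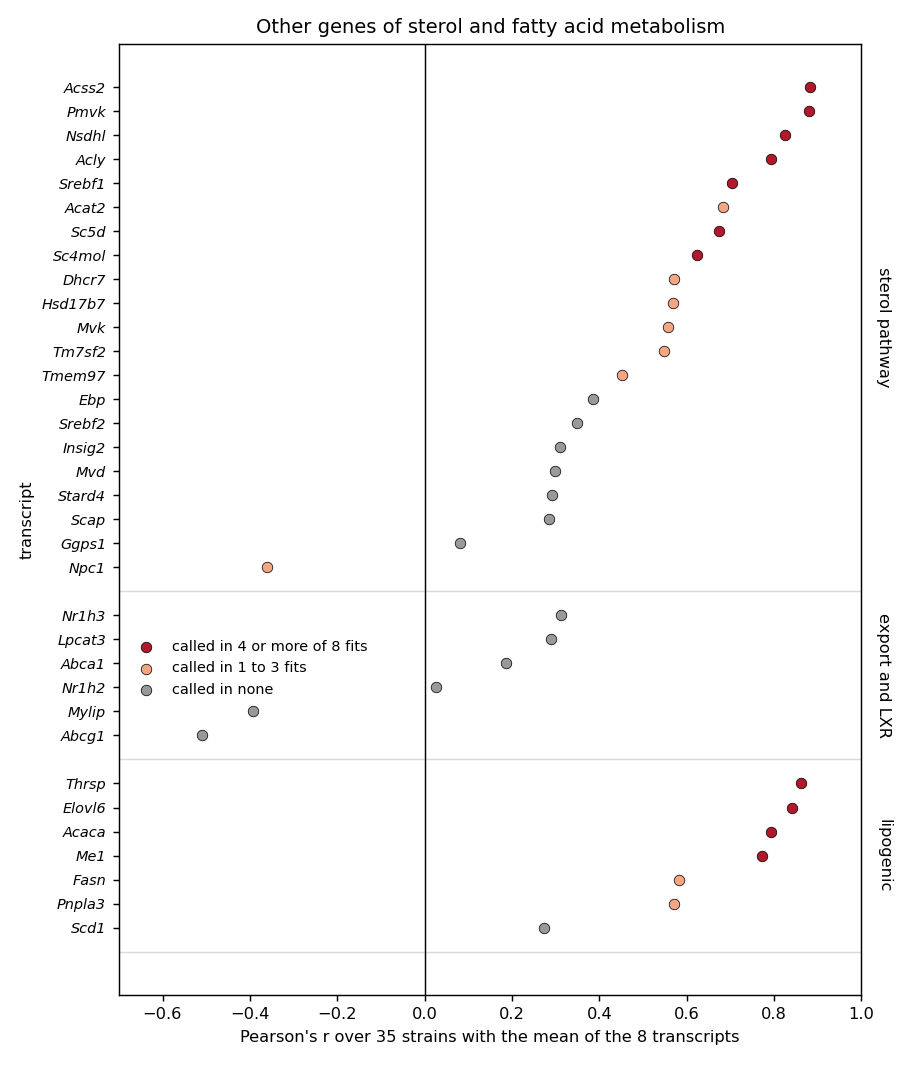
Pearson's r over 35 BXD strains between each listed gene and the mean of the 8 scaled transcripts, by list, with colour for the number of the 8 limma fits in which it was called higher. The plot holds 21 of the 25 sterol genes. All 25 have a median r of 0.558, from -0.360 for *Npc1* to 0.882 for *Acss2*, and the lipogenic genes a median of 0.772.

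As a description, the median r with the mean of the 8 was 0.558 over the 25 sterol genes and -0.0065 over all probe sets, with a 99th percentile of 0.561. *Acss2* was at 0.882, *Pmvk* at 0.879 and *Nsdhl* at 0.826.

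Markers of other cells were set beside the members, since dissected brown fat also holds vessels, immune cells and pieces of neighbouring tissue. The mean of each marker list, after scaling, was the covariate of a limma fit over all probe sets, those of the markers included. The endothelium list (*Pecam1*, *Cdh5*, *Kdr* and *Tek*, 4 of 4 above background) had a mean level of 11.66 in its lowest strain, 11.996 in the median strain and 12.35 in the highest. With it, 4 of 8 members fell, against 2.99% of all probe sets called in either direction: *Insig1* (r = -0.565, adjusted p = 0.0165), *Lss* (-0.558, 0.0195), *Fdft1* (-0.550, 0.0211) and *Cyp51* (-0.524, 0.0346). At an unadjusted p under 0.05, 8 of 8 passed in either direction, and *Hmgcs1* went the other way from the 4 (r = 0.359, adjusted p = 0.252). The share of all probe sets at that unadjusted p was not counted, so the 8 of 8 has no background here. The count of 4 became 2 after centring each array on its median, 1 without the 2 strains farthest from the median of the list, and 0 with the macrophage list as a second covariate or at an adjusted p of 0.01. With this list as a second covariate, added after the data were seen, 12 of the 15 pairs were called.

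The macrophage list (6 of 6 above background) had mean levels from 9.36 through 10.07 to 11.32, the last in BXD61, which is also the strain with the lowest mean of the 8. Its level in BXD87 was 9.43. Only *Fdft1* was called with it (r = -0.612, adjusted p = 0.00408), against 3.43% of all probe sets. At an unadjusted p under 0.05, 4 of 8 passed, again with no share of all probe sets counted. *Fdft1* also fell with the white fat list (r = -0.605, adjusted p = 0.0132), against 2.12%. *Hmgcs1* rose with the adipocyte list of *Adipoq*, *Fabp4*, *Plin1* and *Pparg* (r = 0.725, adjusted p = 0.00385), against 0.126%. Without the 2 strains farthest from the median of the list, the calls with macrophages and adipocytes did not hold, and with ranks those with white fat and adipocytes did not. With the macrophage list as a second covariate, also added after the data were seen, the same 15 pairs were called, as they were with the skeletal muscle list. The white fat and adipocyte lists were not tried as a second covariate.

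The remaining lists gave 0 of 8 calls in limma at an adjusted p of 0.05. For the brown fat list, 8 of 8 above background, 4 members passed an unadjusted p of 0.05, and 2.37% of all probe sets were called in either direction. For skeletal muscle 0 passed unadjusted (1.88% of all probe sets called), for liver 0 (0.656%) and for Schwann cells 0 (0.352%). For lymphocytes 1 passed unadjusted (0.00486% called) and for blood 4 (0.00972% called). These shares, like those of the other lists, are at an adjusted p of 0.05. They are no background for the unadjusted counts, and the share of all probe sets at an unadjusted p was not counted for these lists. Of the liver list 3 of 10 genes were above background in the BXD mean, of the lymphocyte list 1 of 5, and of the blood list 3 of 4 genes were found, 2 of them above background.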

How the data were processed

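Total RNA of brown adipose tissue was hybridised to Affymetrix MoGene 2.0 arrays, 1 per strain pool. A single table with 41345 probe sets and 37 arrays was deposited, and its values are scores: per the labels they come from Affymetrix Expression Console, and the authors rescaled each array (mean 8, SD 2). The summary method and genome build are not given in the sources used here. The 190 array controls were left out, and 0 columns were unused. Arrays correlated with each other at r of 0.968 to 0.987. Arrays have no read depth, and their number limits the precision.

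Tests had been planned for log2-like values and were run on the scores as they are, over the 35 BXD strains as replicates, with limma 3.58.1 (lmFit, eBayes) in R 4.3.3. Each fit had 1 continuous covariate and Benjamini-Hochberg adjustment over all probe sets. The transcript used as covariate was left out of its own fit. Correlations used 100000 two-sided permutations in scipy 1.17.1, with numpy 2.4.6, pandas 2.3.3 and matplotlib 3.10.9 in Python 3.11.15. The 28 member pairs were computed, and only the pairs named carry a permutation p. On simulated data for the *Sqle* fit (41154 probe sets, 200 changed), 100% were recovered at a slope of 1.5 SD per SD with 9 false calls, and 71% at 0.8 SD with 6 false calls. The simulated noise was normal and independent between probe sets, while measured transcripts covary over strains, so the numbers of false calls need not hold for the data.

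The members and lists were chosen with earlier results of these data known. The genes named are the members, the genes of the lists, and the 10 with the highest and 5 with the lowest r with the mean of the members. Genes most and least like *Hmgcs1* and *Fdft1* were added after the values were seen. The brightest probe set stood for a gene with several, and *Msmo1* is listed as *Sc4mol*. Some of these genes are counted but not reported here on their own. Alternatives were quantile normalization, centring on the median, both parents included, strains left out, ranks, other thresholds, the mean of probe sets, and muscle, the first principal component or a cell list as a second covariate.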

Additional observations from a re-analysis of the deposited data

How the results depend on the processing

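Of 450 values recomputed under alternatives, 410 were labelled the same and 40 moved. A count was labelled the same within a set fold, and the median r of pairs within the SD of the 28 r values. Thus 0.456 without BXD45, BXD87 and BXD101 was labelled the same as 0.667. Some values could not move or were repeats. Averaging probe sets left the members as they were, since each has 1. BXD70 and BXD97 were left out under more than 1 heading, and counts of 0 that stayed at 0 were labelled the same. Every pair called with a positive slope under an alternative was among the 15 of the main fits. The signs of other single slopes under the alternatives were not recorded. For *Hmgcs1* with *Sqle*, a pair that was not called, r was -0.045 and rho 0.018. Without any single strain the called pairs numbered 15 in each case, the median r of the 28 pairs was 0.625 to 0.695 (0.667 over all strains), and the opposite pair of *Hmgcs1* and *Fdft1* numbered 0 to 1. With ranks, 4 pairs were called, all among the 15, with 0 opposite pairs, 0 sterol pathway genes (9 before), 1 lipogenic gene (4 before) and 1 member with *Srebf1* (5 before), and members called with the adipocyte and white fat lists numbered 0 each. Without the 2 strains farthest from the median of each covariate, 8 pairs were called, with 0 opposite pairs, 5 sterol pathway genes and 3 members with *Srebf1*, and the cell lists gave 0 (adipocyte), 0 (macrophages) and 1 (endothelium).

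Without BXD45, BXD87 and BXD101, chosen after the data were seen, 6 pairs, 0 opposite pairs, 2 sterol pathway genes, 1 lipogenic gene and 0 members with *Srebf1* were called. With the first principal component as a covariate, opposite pairs and members called with the white fat list were 0 each. At an adjusted p of 0.01, opposite pairs were 0, and members with the white fat and endothelium lists 0 each. Centring on the median left 0 members with the adipocyte list and 2 with endothelium. With the endothelium list as a covariate, also chosen afterwards, opposite pairs were 0, lipogenic genes 2, members with the brown fat list 1 and with macrophages 0. With the macrophage list, members with the white fat and endothelium lists were 0 each. The cause of these changes was not tested. Without the highest and lowest strain, the range of *Fdps* was 1.07 units and that of *Sqle* 1.51. Quantile normalization moved a value by at most 0.17 units. No paired analysis was possible because each strain has 1 array and the groups share fewer than 2 replicate numbers. Near background, as for the lower strains of *Sqle* and *Cyp51*, small differences are not resolved.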

Other observations

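Outside the lists, the transcript most like the mean of the 8 over the 35 strains was *Acsl5*, a long-chain acyl-CoA synthetase, with Pearson's r of 0.937. Its range was 2.88 units, and no other named transcript was closer to that mean. Among the next were *Tlcd1* (r = 0.885), *G6pdx* (0.883), *Slc2a5* (0.869), *Dhrs7* (0.862), *Adcy10* (0.856), *Pcyt2* (0.851), *Sorl1* (0.847) and *Pgd* (0.841). Of these, *G6pdx* and *Pgd* encode the NADPH-producing dehydrogenases of the pentose phosphate pathway, *Slc2a5* the fructose transporter and *Pcyt2* an enzyme of phosphatidylethanolamine synthesis. *Adcy10* had a mean of 7.03, under the limit of background. The lowest r were those of *Lrp1*, a receptor for lipoproteins (-0.782), *Plp2* (-0.752), *Ogt*, which attaches N-acetylglucosamine to proteins (-0.741), *Slco2b1* (-0.737) and *Dennd4c* (-0.728). These are the ends of a ranking of all named transcripts and carry no test.

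The profiles of *Hmgcs1* and *Fdft1*, looked up after their values were seen, resembled other genes. Most like *Hmgcs1* were *Arid1b* (r = 0.780), *Srsf2* (0.768), *Gm19514* (0.755), *Plxna2* (0.754) and the fatty acid transporter *Cd36* (0.749). Among the least like it were *Rnf144b* (-0.753) and *Stambp* (-0.747). Most like *Fdft1* were *Mettl7a1* (0.860), *Rad9b* (0.860) and *Rhou* (0.859), and least like it was *Lpgat1*, an acyltransferase of phospholipids (-0.895), followed by *Sdpr* (-0.789).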
